A study of Mus musculus with 9 samples.

Results

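The genes described here are 7 that encode the contractile apparatus of smooth muscle: Acta2, Actg2, Myh11, Mylk, Tagln, Cnn1 and Smtn. They were chosen by symbol. Each was represented by 1 probe set, so there were 7 of the 12488 probe sets on the array, and 6 of these passed the filter on dim values together with 10645 probe sets in all. RNA from the ventricles of 9 mice was measured on 9 one-colour oligonucleotide arrays, 1 animal to an array and 3 arrays to a group. The caPI3K mice carried a constitutively active form of phosphoinositide 3-kinase (PI3K) and, per the labels, had hearts 20% larger than wild-type littermates. The dnPI3K mice carried a dominant-negative form and had hearts 17% smaller. The non-transgenic mice (NTG) carried neither and served as controls for both groups. Strain, age, sex, treatment and the promoter of the transgenes are not given in the sources used here. In the published mouse lines of these names the transgene is driven by the alpha-myosin heavy chain promoter, which is active in cardiac muscle cells.

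Smooth muscle shortens when actin filaments slide along filaments of smooth muscle myosin. Contraction starts when myosin light chain kinase, switched on by calcium and calmodulin, phosphorylates the regulatory light chain of that myosin. In the adult ventricle these genes are best known from the walls of coronary arteries and arterioles. Several of them, Acta2 and Tagln above all, are also active in the muscle cells of the embryonic heart, and Acta2 is the classical marker of activated fibroblasts. Serum response factor (SRF), which binds a DNA element called the CArG box, and its cofactor myocardin drive much of this group of genes. The arrays measured whole ventricle, so that fewer cells of a type and less RNA per cell cannot be told apart.

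The upstream sequence of Acta2 is shown because Acta2 had the largest difference among the 7 genes, and short stretches of 3 other actin genes are shown beside it for comparison. RefSeq promoter sequences (build GRCm38.p6) were at hand for 4 of the 7 genes: Acta2, Cnn1, Smtn and Mylk. Sequences run 5′ to 3′ on the strand of the gene. Capitals mark CArG boxes and, in Acta2, the MCAT core CATTCC, which there lies on the opposite strand. The Acta2 stretch is chr19:34255374-34255623, the 250 bases before the annotated start. The others are 30 bases each around a CArG box, from chr8:123894829-123894858 for Acta1, chr2:114052903-114052932 for Actc1 and chr11:120348566-120348595 for Actg1, all on the minus strand.
Acta2: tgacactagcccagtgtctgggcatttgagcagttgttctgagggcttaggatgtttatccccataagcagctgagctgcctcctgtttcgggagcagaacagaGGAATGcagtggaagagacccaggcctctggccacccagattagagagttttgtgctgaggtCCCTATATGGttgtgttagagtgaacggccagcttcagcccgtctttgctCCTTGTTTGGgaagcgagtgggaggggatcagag
Acta1: tgcccgacacCCAAATATGGcttgggaagg
Actc1: gctaaggcgaCCAAATAAGGcaaggtggca
Actg1: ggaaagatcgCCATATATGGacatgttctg

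A CArG box was searched as CCNNNNNNGG, which reads alike on both strands. With all 6 inner bases A or T, it was found in 1.47% of 32851 promoter windows of the same length and in 0 of the 4 smooth muscle genes. With at least 5 of 6 inner bases A or T, it was found in 8.59% of windows and in 1 of the 4 genes, Acta2. Acta2 held it at 84 bases before the start (CCCTATATGG) and at 34 bases (CCTTGTTTGG), and 0.67% of windows held at least 2. The MCAT core, to which TEAD factors bind, was in 12.6% of windows on either strand and in 3 of the 4 genes, at 146 bases before the start in Acta2, 222 in Smtn and 158 in Mylk. Acta1 held a box with 6 of 6 at 73 bases, Actc1 at 47 and Actg1 at 90. With 5 of 6, Acta1 held further boxes at 205 and 154 bases, and Actc1 at 175, 138 and 87. More than 1 box was thus not particular to Acta2 among these actin genes. These matches describe letters in a window and were not tested for binding.

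Acta2, smooth muscle alpha-actin, was high in all 3 dnPI3K ventricles. Normalized intensity was 2749, 2021 and 2894 in the dnPI3K mice, 1457, 1170 and 1188 in the NTG mice, and 806, 727 and 1072 in the caPI3K mice. Every dnPI3K value lay above every NTG value, and every caPI3K value lay below every NTG value. Group means were 2555 ± 468 for dnPI3K, 1272 ± 161 for NTG and 868 ± 181 for caPI3K (SD, n = 3 each). Acta2 rose in dnPI3K against NTG, by a log2 fold change of 0.997 ± 0.175 (SE, 95% interval 0.61 to 1.38, adjusted p = 0.0176 by limma with Benjamini-Hochberg adjustment over all probe sets tested, threshold 0.05). It was lower in caPI3K than in dnPI3K, by -1.56 ± 0.175 (-1.95 to -1.17, limma adjusted p = 0.00113), which is 2.95-fold. The value for caPI3K against NTG was -0.56 ± 0.175 (-0.95 to -0.18), and it did not pass over all probe sets (limma adjusted p = 0.493). The call for dnPI3K against NTG was lost without dnPI3K replicate 1 (0.94, limma adjusted p = 0.0633), without dnPI3K replicate 3 (0.90, limma adjusted p = 0.0715) and without NTG replicate 2 (0.94, limma adjusted p = 0.0689). It was also lost without the filter on dim probe sets (limma adjusted p = 0.0772) and without the intensity trend (limma adjusted p = 0.0793), while the difference from caPI3K passed without each of the 9 arrays in turn.

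**Figure D1:**
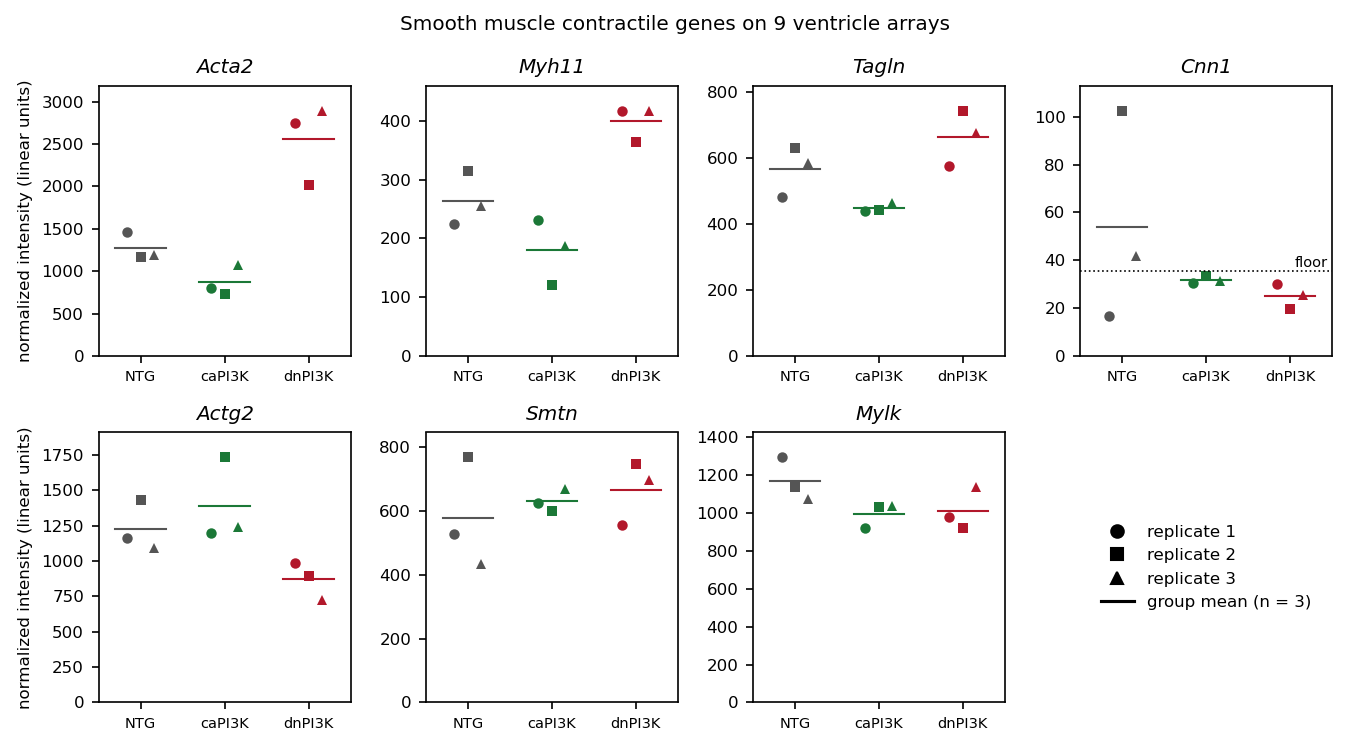
Normalized intensity (linear units, y axes from 0) of the 7 smooth muscle contractile genes on each array, by group (x axis); marker shape gives the replicate number, horizontal lines give group means of 3 arrays, and the dotted line in the Cnn1 panel is the floor of 35.34. Acta2 and Myh11 lie highest in dnPI3K, Actg2 lies lowest there, Smtn overlaps between all groups, and Cnn1 is above the floor on 2 NTG arrays.

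Myh11, the smooth muscle myosin heavy chain and the most restricted marker of mature smooth muscle, had the same order of group means. Its intensity was 417, 363 and 418 in dnPI3K, 224, 315 and 255 in NTG, and 232, 120 and 188 in caPI3K. The dnPI3K values lay above those of both other groups, whereas caPI3K and NTG overlapped. Means were 400 ± 31.2, 265 ± 46.1 and 180 ± 56.4 (SD, n = 3) in that order. Myh11 was lower in caPI3K than in dnPI3K by -1.20 ± 0.261 on the log2 scale (95% interval -1.78 to -0.62, limma adjusted p = 0.0334), a 2.30-fold difference. Against NTG the values were 0.61 ± 0.261 for dnPI3K (limma adjusted p = 0.312) and -0.59 ± 0.261 for caPI3K (limma adjusted p = 0.707), and neither passed. The difference between the transgenic groups no longer passed when caPI3K replicate 2 (-0.93, limma adjusted p = 0.101) or replicate 3 (-1.26, limma adjusted p = 0.0712) was left out. The same held for dnPI3K replicate 1 (-1.17, limma adjusted p = 0.0971), replicate 2 (-1.26, limma adjusted p = 0.0889) and replicate 3 (-1.16, limma adjusted p = 0.107), for a fit without the filter on dim probe sets (limma adjusted p = 0.0759) and for one without the intensity trend (limma adjusted p = 0.0623).

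Mylk encodes the kinase that phosphorylates the myosin light chain, and from the same locus a long form found in non-muscle cells. Its intensity was 980, 918 and 1137 in dnPI3K, 919, 1030 and 1039 in caPI3K, and 1295, 1135 and 1072 in NTG. The caPI3K values lay below all NTG values, and dnPI3K overlapped with both. The log2 fold changes were -0.23 ± 0.12 for caPI3K against NTG (limma adjusted p = 0.753), -0.21 ± 0.12 for dnPI3K against NTG (limma adjusted p = 0.472) and -0.02 for caPI3K against dnPI3K. The 95% interval of the last, -0.28 to 0.25, leaves out the differences of Acta2 and Myh11 in the same comparison.

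Tagln, transgelin or SM22-alpha, binds along actin filaments. Its intensity was 575, 744 and 675 in dnPI3K, 482, 631 and 584 in NTG, and 440, 444 and 463 in caPI3K. The 3 caPI3K arrays lay within a narrow range below all others, and dnPI3K overlapped with NTG. Tagln thus had the order of Acta2 and Myh11 with smaller values: -0.56 ± 0.15 for caPI3K against dnPI3K (95% interval -0.89 to -0.23, limma adjusted p = 0.0789), -0.32 ± 0.15 for caPI3K against NTG (limma adjusted p = 0.719) and 0.23 ± 0.15 for dnPI3K against NTG (limma adjusted p = 0.53). None passed. The value for caPI3K against dnPI3K passed when only probe sets above the median intensity were tested (limma adjusted p = 0.0476) and with array weights (limma adjusted p = 0.0369).

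Smtn encodes smoothelin, an actin-associated protein of fully contractile smooth muscle. Its intensity was 624, 601 and 669 in caPI3K, 555, 747 and 696 in dnPI3K, and 528, 769 and 435 in NTG. All groups overlapped, and the NTG arrays alone spanned the whole range. The log2 fold changes were 0.17 ± 0.201 (95% interval -0.27 to 0.61, limma adjusted p = 0.892) for caPI3K and 0.24 ± 0.201 (-0.21 to 0.68, limma adjusted p = 0.656) for dnPI3K, both against NTG. For caPI3K against dnPI3K the value was -0.07 with an interval from -0.51 to 0.38.

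Cnn1, calponin, an actin-binding protein that restrains the myosin ATPase, was dim. It lay above the floor of 35.34 on 2 of 9 arrays and was not tested. Its intensity was 30.4, 33.4 and 31.4 in caPI3K, 30.2, 19.4 and 25.6 in dnPI3K, and 16.7, 102.6 and 41.9 in NTG. The array with the highest value and the array with the lowest value were both NTG. No fold is given between groups at or below the floor.

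Actg2, smooth muscle gamma-actin, is the actin of gut and other visceral muscle. Its probe set carries the array maker's suffix for probes shared within a gene family, so the value cannot be assigned to Actg2 alone among the near-identical muscle actins. Its order was the reverse of that of Acta2: 1199, 1734 and 1239 in caPI3K, 1165, 1430 and 1091 in NTG, and 987, 895 and 725 in dnPI3K. The dnPI3K values lay below those of both other groups. The log2 fold changes were 0.67 ± 0.172 for caPI3K against dnPI3K (limma adjusted p = 0.0679), -0.50 ± 0.172 for dnPI3K against NTG (95% interval -0.88 to -0.12, limma adjusted p = 0.197) and 0.17 ± 0.172 for caPI3K against NTG (limma adjusted p = 0.878), and none passed. The first passed among probe sets above the median (limma adjusted p = 0.047) and with array weights (limma adjusted p = 0.0302). Over the 9 arrays the log2 values of Actg2 had r = 0.878 with those of Actc1, the cardiac alpha-actin, whose probe set carries the same suffix. After subtraction of group means r was 0.64. These r describe 9 arrays that fall into 3 groups.

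**Figure D2:**
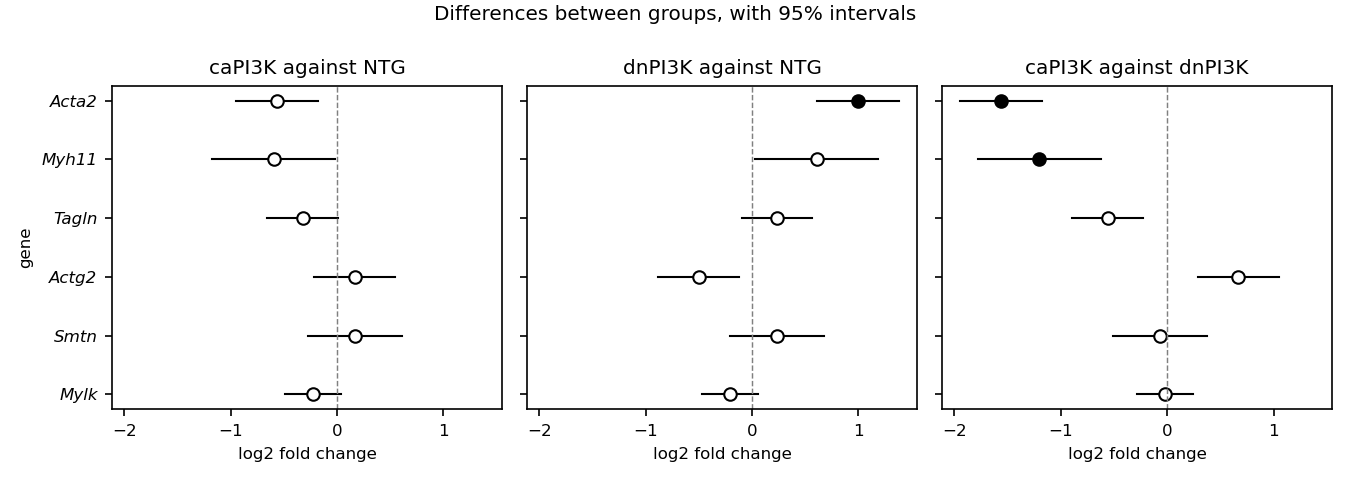
Log2 fold change (x axes) of the 6 genes tested (y axis) in the 3 comparisons; lines are moderated 95% intervals and filled points passed the adjusted threshold of 0.05. Acta2 passed in dnPI3K against NTG at 0.997 and in caPI3K against dnPI3K at -1.56, Myh11 passed in the latter at -1.20, and Actg2 lies on the opposite side of 0 from Acta2 in all 3.

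Counted over the genes, 0 of 6 passed for caPI3K against NTG, where 0.0845% of all probe sets tested passed (9 of 10645). At an unadjusted p under 0.05 the limma fit called 2 of the 6 there, Acta2 and Myh11, and 734 of all probe sets. For dnPI3K against NTG 1 of 6 passed, Acta2, and 2.18% of all did. For caPI3K against dnPI3K 2 of 6 passed, Acta2 and Myh11, both lower in caPI3K, and 3.24% of all did. The unadjusted threshold called 3 of 6 and 1577 of all probe sets for dnPI3K against NTG in the limma fit. For caPI3K against dnPI3K it called 4 of 6 and 1749 of all. Groups of 3 arrays did not overlap for 3 of 6 genes in caPI3K against NTG (12.1% of all probe sets), for 3 of 6 in dnPI3K against NTG (19.1%) and for 4 of 6 in caPI3K against dnPI3K (23.7%). The median log2 fold changes of the 6 genes were -0.275, 0.235 and -0.312 in these comparisons, and those of all probe sets were -0.000686, 0.00326 and 0.000218. All 6 lay above the floor on all 9 arrays. The comparisons against NTG share the same 3 NTG arrays, and caPI3K against dnPI3K uses none of them as a group.

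Within an array, Acta2 was set against each other gene as a log2 ratio, a measure added after the data were seen. Relative to the NTG mean, the ratio of Acta2 to Mylk was 1.37, 1.02 and 1.23 in dnPI3K and 0.05, -0.0772 and 0.0272 in NTG. These groups did not overlap, with a difference of 1.20 (two-sided exact permutation test, p = 0.1, the smallest that 3 against 3 allows; 0.25 after Benjamini-Hochberg adjustment over 15 such comparisons). The ratio to Myh11 differed between dnPI3K and NTG by 0.39 with overlap (exact p = 0.2), and between caPI3K and dnPI3K by -0.359 with overlap (exact p = 0.3). Between dnPI3K and NTG the ratios to Tagln and Smtn differed by 0.763 and 0.76 with overlap (exact p = 0.2 and 0.3). The ratio to Actg2 differed there by 1.5 without overlap (exact p = 0.1). Every ratio overlapped between caPI3K and NTG. Against Tagln the ratio of Acta2 differed by -1.0 between caPI3K and dnPI3K without overlap (exact p = 0.1). For Actg2, Smtn and Mylk the ratio also differed between caPI3K and dnPI3K without overlap, by -2.23, -1.49 and -1.54 (exact p = 0.1 each).

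The muscle actins did not share a pattern. Acta1, the skeletal alpha-actin, is also active in the fetal heart and in overloaded heart muscle. Its intensity was 21230, 20877 and 17243 in caPI3K, 10378, 6769 and 7972 in dnPI3K, and 9968, 8036 and 8008 in NTG. It rose in caPI3K against NTG by 1.19 ± 0.155 (limma adjusted p = 0.0255) and was higher in caPI3K than in dnPI3K by 1.26 (limma adjusted p = 0.00164), while dnPI3K against NTG gave -0.07. Acta2 and Acta1 therefore stood high in different transgenic groups. Actc1 was -0.17 ± 0.0828 in dnPI3K and 0.02 in caPI3K against NTG, and neither value passed. Of 6 actin genes tested, 1 passed in caPI3K against NTG (Acta1, higher), 1 in dnPI3K against NTG (Acta2, higher) and 2 in caPI3K against dnPI3K (Acta1 higher, Acta2 lower).

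**Figure D3:**
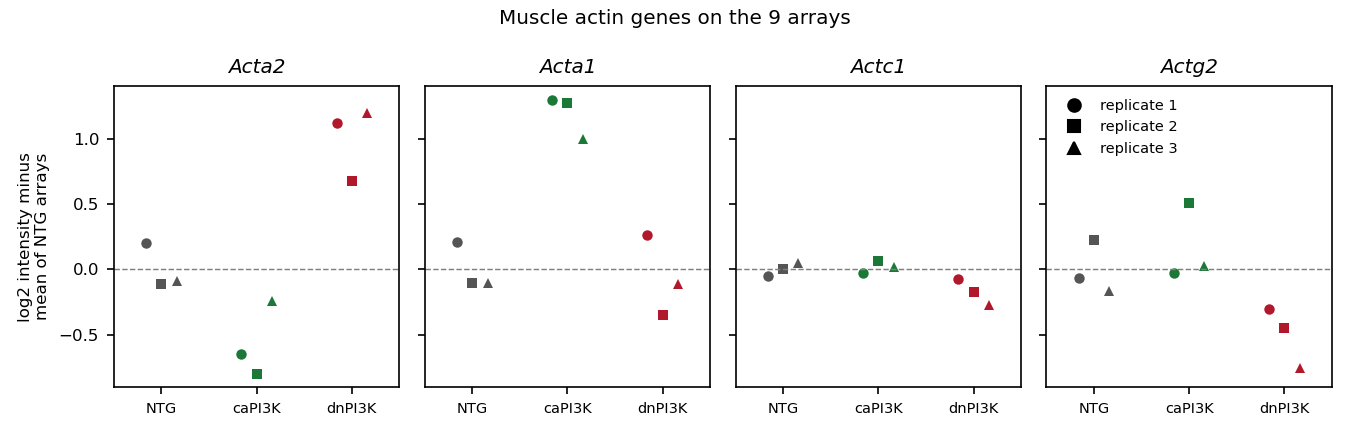
Log2 intensity minus the mean of the 3 NTG arrays (y axis, 1 unit is 2-fold) of the muscle actin genes on each array by group (x axis); marker shape gives the replicate number. Acta2 is high in dnPI3K, Acta1 is high in caPI3K at 1.19 on average, Actc1 stays near 0, and Actg2 is lowest in dnPI3K.

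Among 22 tested genes of 24 on the array for other parts of the smooth muscle cytoskeleton and for control of contraction, 0 passed in caPI3K against NTG (2 at an unadjusted p under 0.05 in the limma fit), 1 was higher in dnPI3K against NTG and 2 were lower in caPI3K than in dnPI3K. Median values were -0.0384, 0.0615 and 0.00641. The gene higher in dnPI3K was Tpm2, beta-tropomyosin, which lies along actin filaments in smooth and slow skeletal muscle. Its intensity was 1179, 1270 and 1343 in dnPI3K, 519, 414 and 296 in NTG, and 353, 288 and 431 in caPI3K. That is a log2 fold change of 1.66 ± 0.212 for dnPI3K against NTG (limma adjusted p = 0.00395) and -1.84 for caPI3K against dnPI3K (limma adjusted p = 0.00119). A second Tpm2 probe set, marked by its suffix as designed under relaxed rules, disagreed at -0.65 and 0.95 (limma adjusted p = 0.497 and 0.252). The LIM proteins Csrp1 (-0.57) and Pdlim7 (0.60) did not pass in caPI3K against dnPI3K. Other probe sets gave -0.28 for Csrp1, and -0.23 and 0.28 for Pdlim7.

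Srf and Myocd had no probe set with a single symbol here. Of 20 other genes that regulate SRF-dependent transcription, 0 passed in caPI3K against NTG (2 at an unadjusted p under 0.05 in the limma fit), and 2 were lower in dnPI3K than in NTG and than in caPI3K. These were Mef2c, a muscle transcription factor, and Fhl2, a LIM protein that binds SRF. Mef2c was 474, 379 and 365 in dnPI3K, 739, 1233 and 937 in NTG, and 979, 927 and 1064 in caPI3K (-1.23 ± 0.183 for dnPI3K against NTG, limma adjusted p = 0.00752). Of its other probe sets for that comparison, 1 gave -1.62 (limma adjusted p = 0.0228), 1 gave -1.13 (limma adjusted p = 0.0811) and 1 gave 0.08 (limma adjusted p = 0.894). Fhl2 was 9427, 9489 and 9281 in dnPI3K against 13067, 14968 and 13995 in NTG (-0.57 ± 0.0831, limma adjusted p = 0.00723). Tead1, a factor that binds the MCAT element, was 1.64 in caPI3K against NTG (limma adjusted p = 0.287). In dnPI3K against NTG it was 1.40 (limma adjusted p = 0.0974), and its other probe set gave 0.42 and 0.34. The brighter Tead1 probe set carries the suffix for relaxed design rules. It was 54.2 ± 34.2 in NTG (SD, n = 3), near the floor of 35.34. Mef2d was 0.32 and 0.04 in caPI3K and dnPI3K against NTG. Acta2 was thus highest in the group in which Mef2c and Fhl2 were lowest.

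Of 14 genes known as direct SRF targets, 1 was higher in each transgenic group against NTG. In caPI3K it was Acta1. In dnPI3K it was Ccn2, connective tissue growth factor, a secreted matricellular protein. Ccn2 was 3611, 4039 and 5358 in dnPI3K, 1914, 1399 and 1663 in NTG, and 924, 1091 and 1520 in caPI3K, with 1.38 ± 0.198 for dnPI3K against NTG (limma adjusted p = 0.00723) and -1.89 for caPI3K against dnPI3K (limma adjusted p = 0.000759). Its dnPI3K arrays lay above all others. Vcl, vinculin, was -0.28 in dnPI3K and -0.14 in caPI3K against NTG and did not pass. A second Vcl probe set gave 0.14 and 0.06 in the same order.

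The genes closest in pattern to each of the 6 genes tested were ranked by Pearson r of log2 values over the 9 arrays, among 1 probe set per gene. For Acta2 they were Prps2 (r = 0.975), Ccn2 (0.966), Fgl2 (0.963), Lmo2 (0.959) and Pdk1 (0.954). For Myh11 they were Fxyd1 (0.972), Abl1 (0.952), Shmt1 (0.944), Fads1 (0.936) and Penk (0.928). For Tagln they were Klhl21 (0.973), Spock2 (0.955), Pxmp2 (0.938), Leng8 (0.937) and Timp3 (0.936). No other smooth muscle contractile gene was in these lists: Acta2 with Myh11 had r = 0.864 and Acta2 with Tagln 0.725. After subtraction of group means, these fell to 0.239 and -0.499, and 0 of the 5 genes nearest to Acta2 stayed among its nearest 5. Arrays of a group share whatever sets the group apart, so these r describe the order of 3 groups more than single animals.

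Markers of the vessel wall and of other cells were read on the same arrays. Pericyte and mural cell markers numbered 9, of which 8 lay above the floor on all arrays. The limma fit called 0 in any comparison, with 1, 1 and 2 at an unadjusted p under 0.05 for caPI3K and for dnPI3K against NTG and for the transgenic groups against each other. In dnPI3K against NTG 7 lay above 0 and 2 below, with a median of 0.103. Their summed intensity was 8302 to 9484 in dnPI3K, 7629 to 9277 in NTG and 7300 to 7995 in caPI3K. Abcc9 alone was 3859.8 to 5026.5 in dnPI3K, 3379.8 to 4340.2 in NTG and 2865.6 to 3717.4 in caPI3K. These sums therefore lean on that gene. Pdgfrb, the receptor that holds pericytes and smooth muscle cells to vessels, was 412, 364 and 345 in dnPI3K, 357, 328 and 357 in NTG, and 187, 279 and 289 in caPI3K. Its log2 fold changes were 0.10 for dnPI3K and -0.49 for caPI3K against NTG, neither of which passed. Notch3 was 0.07 and -0.18 in the same order, Abcc9 0.20 and -0.24, and Anpep 0.45 and 0.31.

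Of 18 endothelial markers, 17 lay above the floor on all arrays and 0 passed in any comparison (1, 1 and 5 at an unadjusted p under 0.05 in the limma fit, in the same order of comparisons). Of all 10645 probe sets tested, 734, 1577 and 1749 had an unadjusted p under 0.05 in the limma fit in that order. In dnPI3K against NTG 15 of the endothelial markers lay above 0 and 3 below, with a median of 0.216. Of all probe sets, 50.5% lay above 0 there. The mean log2 deviation of the list from NTG was 0.143 to 0.235 on the dnPI3K arrays, 0.0257 to 0.162 on the caPI3K arrays and -0.0584 to 0.0333 on the NTG arrays. The dnPI3K arrays thus lay above NTG, where Acta2 and Myh11 also lay above NTG. In caPI3K against NTG 10 lay above 0 and 8 below, with a median of 0.0714. There the means of Acta2 and Myh11 lay below NTG. For dnPI3K and caPI3K against NTG, Kdr was 0.42 and -0.34, Tie1 0.26 and -0.22, Vwf 0.29 and -0.16, and Ptprb 0.61 and 0.12, and none passed. A second Tie1 probe set gave -0.10 and 0.05 in the same order. Of 8 genes of the elastic matrix of arteries, 0 passed against NTG (1 for caPI3K and 3 for dnPI3K at an unadjusted p under 0.05 in the limma fit) and 1 was higher in caPI3K than in dnPI3K. That gene was Mfap5 (0.76, limma adjusted p = 0.047), whose other probe set gave 0.03. Eln, elastin, which arterial smooth muscle secretes, was -0.53 in dnPI3K against NTG (limma adjusted p = 0.122), Mfap4 was -1.26 and Mgp, an inhibitor of calcification, was 0.35, and none passed. Other probe sets gave -0.11 for Eln and 0.11 for Mfap4 in that comparison. The part of vessel wall content in the Acta2 and Myh11 values was not tested.

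Of 19 fibroblast and myofibroblast markers, 1 was lower in dnPI3K than in NTG, Ddr2, a collagen receptor (-1.06 ± 0.166, limma adjusted p = 0.00947), and 2 were higher in caPI3K than in dnPI3K, Ddr2 (1.04) and Col1a1 (0.99, limma adjusted p = 0.018). A second Col1a1 probe set was also higher in caPI3K than in dnPI3K (1.07, limma adjusted p = 0.00444) and lower in dnPI3K than in NTG (-0.89, limma adjusted p = 0.0171). In caPI3K against NTG 0 passed (3 at an unadjusted p under 0.05 in the limma fit). In dnPI3K against NTG, where Acta2 rose, 6 lay above 0 and 13 below, with a median of -0.145. The mean log2 deviation of the list was -0.167 to -0.111 on the dnPI3K arrays and -0.152 to 0.157 on the NTG arrays, which overlap. Postn, periostin, a product of activated fibroblasts, was 0.54 in dnPI3K and 0.80 in caPI3K against NTG, Col5a1 was -0.24 and 0.19, and none passed. A second Col5a1 probe set gave 0.47 and 0.53 in the same order. Summed intensity was 33811 to 37482 in dnPI3K and 34299 to 39650 in NTG. The part of fibroblasts in the Acta2 values was not tested.

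Genes of heart muscle itself were bright on all arrays. All 11 ventricular muscle markers lay above the floor on all 9 arrays, with summed intensity of 265260 to 282830 in dnPI3K, 262420 to 273770 in caPI3K and 264250 to 291110 in NTG. Of them 0 passed in caPI3K against NTG (0 at an unadjusted p under 0.05 in the limma fit). Mybpc3, cardiac myosin-binding protein C, was higher in dnPI3K than in NTG (0.46, limma adjusted p = 0.0336) and lower in caPI3K than in dnPI3K (-0.49, limma adjusted p = 0.0164). In dnPI3K against NTG, Tnnc1 was -0.20 and Ryr2 was -0.19, and neither passed.

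**Figure D4:**
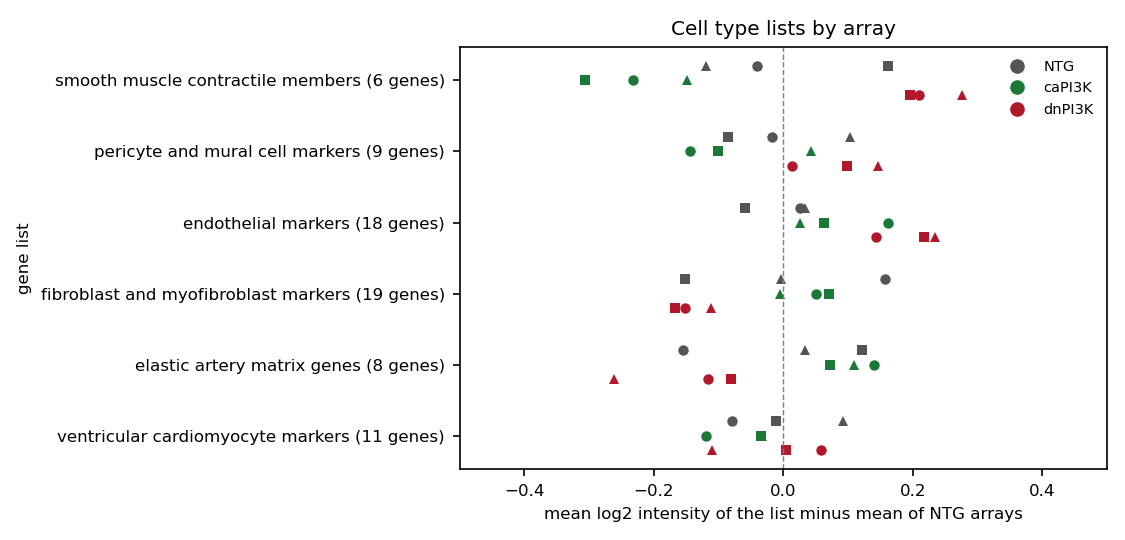
Mean log2 intensity of each cell type list (y axis) on each array minus the mean of the NTG arrays (x axis), coloured by group, with marker shape for the replicate number. The 6 smooth muscle genes lie at 0.196 to 0.276 in dnPI3K and -0.306 to -0.148 in caPI3K. Endothelial markers lie above NTG in dnPI3K at 0.143 to 0.235, and at 0.0257 to 0.162 in caPI3K. Fibroblast markers in dnPI3K, at -0.167 to -0.111, overlap with NTG at -0.152 to 0.157.

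Several array-wide features moved with the groups. The dnPI3K animals carry numbers of a different series from the other animals, so series and genotype cannot be told apart for dnPI3K. On the dnPI3K arrays the geometric mean of the spike-in controls was 1591 to 2012, against 2618 to 3356 in NTG and 2744 to 3287 in caPI3K. The 3′ probe set of 18S ribosomal RNA was 3265 to 8567 in dnPI3K against 450.5 to 670.6 in NTG and 475.8 to 545 in caPI3K. The ratio of the 3′ to the 5′ probe set of Actb, a sign of RNA integrity, was 1.33 to 1.34 in dnPI3K, 1.17 to 1.31 in NTG and 1.03 to 1.17 in caPI3K. The same ratio of Gapdh was not raised in dnPI3K. It was 0.788 to 0.835 there, 0.827 to 0.877 in NTG and 0.819 to 0.856 in caPI3K. The part of these features in the Acta2 values was not tested. By number, the caPI3K and NTG animals fall into 2 shared series, from 2800 (2 arrays a group) and from 3100 (1 array a group). Within these, caPI3K minus NTG was -0.77 and -0.148 for Acta2, -0.67 and -0.442 for Myh11, -0.319 and -0.334 for Tagln, 0.16 and 0.185 for Actg2, -0.317 and -0.0458 for Mylk, and -0.0571 and 0.621 for Smtn. Acta2, Myh11, Tagln, Actg2 and Mylk kept their sign in both, and Smtn did not.

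The atrial light chain Myl4 varied within groups. It was 6896, 3669 and 223 in NTG, 499, 421 and 4304 in caPI3K, and 27.9, 49.7 and 36.1 in dnPI3K, although the labels give ventricle only. Acta2 on the same NTG arrays was 1457, 1170 and 1188. With the 3 arrays highest in Myl4 and Myl7 left out, which keeps 1 NTG array that is assumed to vary like the other groups, Acta2 in dnPI3K against NTG was 1.09 and no longer passed (limma adjusted p = 0.0923), and Myh11 in caPI3K against dnPI3K was -1.27 and no longer passed (limma adjusted p = 0.0849). This setting was chosen after the data were seen.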

How the data were processed

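The deposited table holds 1 intensity per probe set and array on a linear scale. The software and steps by which the authors made this intensity are not given in the sources used here. All scans used a photomultiplier setting of 10%, per the labels. A mean trimmed of 2% of probe sets at each end was 500.4 on all 9 arrays, so the deposited values had been scaled. They were quantile normalized, given a floor of 35.34 (the 20th percentile) and put on the log2 scale. Probe sets above the floor on at least 3 of 9 arrays were tested, without 66 control probe sets. Symbols came from the platform annotation (1 symbol for 10855 probe sets, several for 396, none listed for 1237). All 7 genes matched RefSeq by Entrez number. No build is named for the arrays, and coordinates are those of RefSeq sequences (GRCm38.p6).

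One fit of all 9 arrays with group as its only term was made with limma 3.58.1 in R 4.3.3 (moderated with an intensity trend, 6 residual degrees of freedom), with two-sided p-values adjusted over all probe sets tested. It was tested on simulated data. Means ± SD are of normalized intensity before the floor. Nothing states more than 1 array per animal, and array number limits precision. Apart from the within-array Acta2 ratios, read relative to the NTG mean, and the sums over lists, no intensity is compared between probe sets. Groups came from the titles, and replicate numbers follow the order of deposition.

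The genes and the 15 lists were chosen with earlier results of these data known. A list gene entered with its brightest probe set, and the 4 genes of a list with the smallest moderated F p are named, except 1 gene that is not reported here, as are the 5 genes most like a member. Alternatives changed scaling, floor, filter, trend, moderation, weights, the groups fitted and the arrays included. Actin protein identity was not computed.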

Additional observations from a re-analysis of the deposited data

Results flagged for a closer look

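For dnPI3K, genotype and series of animal numbers cannot be told apart. The following log2 differences between caPI3K and dnPI3K passed the test of the difference itself in the limma fit. Among the smooth muscle contractile genes these were Acta2 at -1.56 and Myh11 at -1.20. Among genes of the cytoskeleton and of SRF-dependent transcription they were Tpm2 at -1.84, Mef2c at 1.29, Fhl2 at 0.60, Ccn2 at -1.89 and Acta1 at 1.26. Among markers of other cells they were Col1a1 at 0.99, Ddr2 at 1.04, Mfap5 at 0.76, Mybpc3 at -0.49, Nppa at -2.22, Myl1 at 3.22 and Casq1 at 2.68. The other probe sets of Tpm2 and Mfap5, and 1 of the 3 others of Mef2c, did not repeat these values.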

How the results depend on the processing

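Of 366 values under 21 alternatives, 343 kept their direction and side of the threshold, 14 no longer passed, 4 newly passed and 5 changed sign. The count for caPI3K against NTG was 0 under every alternative. For dnPI3K against NTG the count of 1 became 0 without the filter on dim probe sets, without the intensity trend and without the 3 arrays highest in Myl4 and Myl7, and ranged from 0 to 1 when 1 array was left out. For caPI3K against dnPI3K the count of 2 became 1 under the same 3 settings, 4 among probe sets above the median and 4 with array weights, and ranged from 1 to 2 when 1 array was left out. Acta2 in dnPI3K against NTG had limma adjusted p from 0.0113 to 0.0923 over all alternatives, and in caPI3K against dnPI3K it passed in all 20 (-1.72 to -1.44). With 1 array left out, sign changes fell on values near 0 that passed in no setting: Actg2 (-0.0018 to 0.28) and Smtn (-0.016 to 0.40) in caPI3K against NTG, and Smtn (-0.19 to 0.021) and Mylk (-0.086 to 0.068) in caPI3K against dnPI3K. The cause was not tested. Over all probe sets, calls ranged from 0 to 20, from 27 to 285 and from 134 to 527 in the 3 comparisons, against 9, 232 and 345. Cnn1 lies near the dim end of the array, where signal limits any comparison. When the series of animal numbers entered as a block, caPI3K against NTG kept its count of 0, and Acta2 was -0.56 (limma adjusted p = 0.493). No paired analysis was possible because the labels number no replicates, and the numbers used here, given in accession order, match no animal of a group to an animal of another.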

Other observations

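Genes of the fetal heart, read beside the smooth muscle genes, did not share a pattern. Of 13, 2 were higher in caPI3K than in NTG, Acta1 and Myh7, the slow beta-myosin heavy chain (1.03 ± 0.134, limma adjusted p = 0.0255). In dnPI3K against NTG 2 were higher, Myh7 (1.42 ± 0.134, limma adjusted p = 0.000574) and Tpm2, and 2 were lower, the atrial light chains Myl4 and Myl7 (limma adjusted p = 0.04 and 0.0476). Both lay at or near the floor in dnPI3K, except Myl7 on replicate 2 (142), and varied widely in NTG, so no fold is given. A second Myl4 probe set gave -1.74 (limma adjusted p = 0.0144). In caPI3K against dnPI3K 1 of the 13 was higher and 3 were lower, where 3.24% of all probe sets passed. There 10 of the 13 had an unadjusted p under 0.05 in the limma fit, against 1749 of all 10645 probe sets. On its brightest probe set, Myh7 was thus higher in both transgenic groups than in NTG. There its value for caPI3K against dnPI3K did not pass (-0.39, limma adjusted p = 0.16). A second Myh7 probe set passed in dnPI3K against NTG (2.004, limma adjusted p = 0.0443). It did not pass in caPI3K against NTG (0.6607, limma adjusted p = 0.814) or in caPI3K against dnPI3K (-1.343, limma adjusted p = 0.137). Both Myh7 probe sets carry the same gene family suffix as that of Actg2, so these values cannot be assigned to Myh7 alone. Nppa, atrial natriuretic factor, was 11231, 8414 and 9193 in dnPI3K, 6840, 3744 and 1553 in NTG, and 1695, 1450 and 3527 in caPI3K. Of 9 atrial markers 0 passed in caPI3K against NTG (0 at an unadjusted p under 0.05 in the limma fit), Myl4 and Myl7 were those lower in dnPI3K than in NTG, and Nppa was lower in caPI3K than in dnPI3K. Stard10 was -0.43 and -0.94 in caPI3K and dnPI3K against NTG and did not pass. Of 9 skeletal muscle markers, 2 were lower in dnPI3K than in NTG, the fast light chain Myl1 (-2.02, limma adjusted p = 0.00325) and calsequestrin Casq1 (-1.84, limma adjusted p = 0.00272), and 0 passed in caPI3K against NTG (2 at an unadjusted p under 0.05 in the limma fit). Atp2a1 was -0.85 and Pvalb -0.46 in dnPI3K against NTG, and neither passed. A second Pvalb probe set gave 0.14.

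Of 9 macrophage and blood markers 0 passed in any comparison in the limma fit, with 1, 0 and 0 at an unadjusted p under 0.05 for caPI3K and for dnPI3K against NTG and for the transgenic groups against each other. In caPI3K and dnPI3K against NTG, Csf1r was -0.12 and -0.24, Cd14 0.24 and -0.03, Hba-a1 0.14 and -0.14, and Alas2 0.82 and 0.09. Of 4 epicardial markers 0 passed in any comparison in the limma fit, with 0, 1 and 0 at an unadjusted p under 0.05. Upk3b was -0.39 and -0.43, Wt1 -0.34 and -0.04, Krt8 0.15 and -0.38, and Krt18 0.68 and 1.12 in the same order.

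The genes nearest to Actg2 in pattern over the 9 arrays were Tnnc1, cardiac troponin C (r = 0.952), Strn3 (0.949), Capn3 (0.935), Hsp90aa1 (0.919) and Cacna2d1 (0.914). Those nearest to Smtn were Psmd3 (0.916), Lbp (0.909), Gja5 (0.909), Ikbip (0.899) and Dynlrb1 (0.898). Those nearest to Mylk were Gmip (0.921), Myoz1 (0.882), Isoc1 (0.871), Plscr1 (0.867) and Siah1b (0.862). Tagln and Acta1 had r = -0.904 over the 9 arrays and -0.906 after subtraction of group means, while Acta2 and Acta1 had -0.703 and 0.271. These describe 9 arrays in 3 groups.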
